A study of Mus musculus with 4 samples.

Results

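Small nucleolar RNA (snoRNA) genes were read as the probe sets whose only gene symbol in the platform annotation begins with Snora or Snord followed by a digit, with 1 probe set per gene, the one with the highest mean. This gave 51 genes among 19938 genes with 1 symbol: 20 H/ACA box genes (Snora), 61 to 205 bases long, and 31 C/D box genes (Snord), 45 to 148 bases long in RefSeq. RNA came from fetal brain of C57BL/6J mice at embryonic day 18, on 4 arrays with 1 array for each of 4 groups. The groups were tissue labelled forebrain and tissue labelled hippocampus, each from fetuses of dams given phosphate-buffered saline (PBS) and of dams given ethanol (EtOH). Ethanol was delivered into the stomach as a 15% solution at 2.9 g per kg per day on 5 days, from embryonic day 8 to day 12, so all tissue was collected after dosing had ended. All fetuses shared the strain and no allele or transgene was involved. Whether embryos or litters were pooled is not in the labels, and no difference between 2 arrays has a replicate check.

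snoRNAs are short nuclear RNAs that act in ribonucleoprotein particles, mostly in the nucleolus. C/D box snoRNAs guide the methylation of ribosomal RNA at the ribose 2′ position and H/ACA box snoRNAs guide the change of uridine to pseudouridine, and a few members of each class are instead needed for cleavage of the ribosomal RNA precursor. In mammals most are cut out of introns of host genes, many of which encode ribosomal proteins or other parts of the translation machinery, so a snoRNA and its host messenger RNA come from 1 primary transcript.

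Values are the authors' deposited log2 expression values, and a difference of 0.58 corresponds to 1.5-fold. A filter on low signal was set at a mean log2 value of 7.11, the midpoint of the means of all probe sets. It was passed by 38 of the 51 snoRNA genes, 15 H/ACA and 23 C/D. The 13 others lay at means of 4.46 to 7.03. Second probe sets were present for 5 genes. Those of Snora30 and of Snord118 carried identical values, and in hippocampus the pairs for Snora3 and Snora21 differed after ethanol by -0.21 and -0.26, and by -0.43 and -0.40. A probe set reads any labelled RNA that holds its sequence, so the mature snoRNA cannot be told apart from an unspliced host intron.

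The arrays had like medians over all probe sets, at 7.11 to 7.13. The spread was narrower for ethanol hippocampus, with quartiles of 5.83 and 8.57. In the other 3 arrays the quartiles were 5.74 to 5.78 and 8.64 to 8.67. Over the 11013 genes that passed the filter the median was 8.57 for ethanol hippocampus and 8.66 to 8.68 for the other 3 arrays. Of 11 hippocampal field markers, 9 passed the filter, and in the PBS arrays 7 of these were higher in the tissue labelled hippocampus, with a median difference of only 0.02. Zbtb20, a transcription factor gene of hippocampal pyramidal neurons, was higher there by 0.35, while Prox1, a marker of dentate granule cells, differed by -0.16. As a group these markers did not set the tissue labelled hippocampus apart, and the label is used here as given.

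In hippocampus, snoRNA genes of both classes were lower after ethanol. The difference was below 0 for 48 of the 51 genes: 18 of 20 H/ACA genes, with a median of -0.24, and 30 of 31 C/D genes, with a median of -0.33. Over all genes 52.9% lay below 0. Among genes that passed the filter this was so for 36 of 38 snoRNA genes, where the background was 69.3% and its median -0.08. Among the 7574 filtered genes within the level range of these snoRNA genes (7.12 to 9.23) the share was 68.8% and the median again -0.08. The share depended on the scaling: with quantile normalization 34 of 38 snoRNA genes and 54.8% of filtered genes were lower, and after centring the arrays on their filtered-gene medians, an alternative chosen after seeing the data, 31 of 38 and 43.6% were. With 2 arrays there is no test of this difference, and the sizes were mostly under 1.5-fold.

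A difference of 1.5-fold or more toward lower values was reached by 3 genes, 2 of them above the filter, where 0.427% of all filtered genes were that much lower. None was that much higher, as 0.49% of filtered genes were. Snora52, an H/ACA gene, read 9.30 in forebrain after PBS, 9.08 in forebrain after ethanol, 9.33 in hippocampus after PBS and 8.70 in hippocampus after ethanol, a difference of -0.63 in hippocampus. The hippocampus array after ethanol was the lowest of its readings, and the forebrain arrays also differed in that direction, by -0.23. Snord104, a C/D gene, read 7.94 in each forebrain array, 8.06 in hippocampus after PBS and 7.44 in hippocampus after ethanol, a difference of -0.63. Here the ethanol hippocampus array alone stood apart from the other 3. Snord35a, whose mean lay below the filter, differed by -0.59, with readings of 7.08 and 6.82 in forebrain and 7.25 and 6.66 in hippocampus after PBS and ethanol.

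Further H/ACA genes followed at smaller sizes. Snora30 differed by -0.53 (8.06 after PBS and 7.53 after ethanol), Snora16a by -0.46 (7.89 and 7.43), Snora75 by -0.43 (8.24 and 7.82) and Snora7a by -0.39 (8.25 and 7.85). At the other end Snora73b was level at 7.91 in each hippocampus array, and Snora74a differed by -0.02 and Snora44 by -0.06. The others above the filter, Snora70, Snora3, Snora23, Snora33, Snora73a, Snora31 and Snora62, lay between -0.25 and -0.19. The single H/ACA gene that was clearly higher, Snora41 at 0.28, lay below the filter, with readings of 6.62 after PBS and 6.90 after ethanol.

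Among C/D genes Snord22 differed by -0.52 (8.38 after PBS and 7.86 after ethanol), Snord35b by -0.45 (7.65 and 7.20), Snord16a by -0.45 (8.26 and 7.80), Snord96a by -0.45 (7.87 and 7.42) and Snord52 by -0.42 (8.12 and 7.70). Snord15b differed by -0.40 and Snord33 by -0.39. The only C/D gene that was higher was Snord8, at 0.05, and Snord55, Snord95 and Snord14e were near level at -0.04, -0.06 and -0.09. Each class thus held genes 0.4 or more apart from each other in their difference, within the same pair of arrays.

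**Figure D1:**
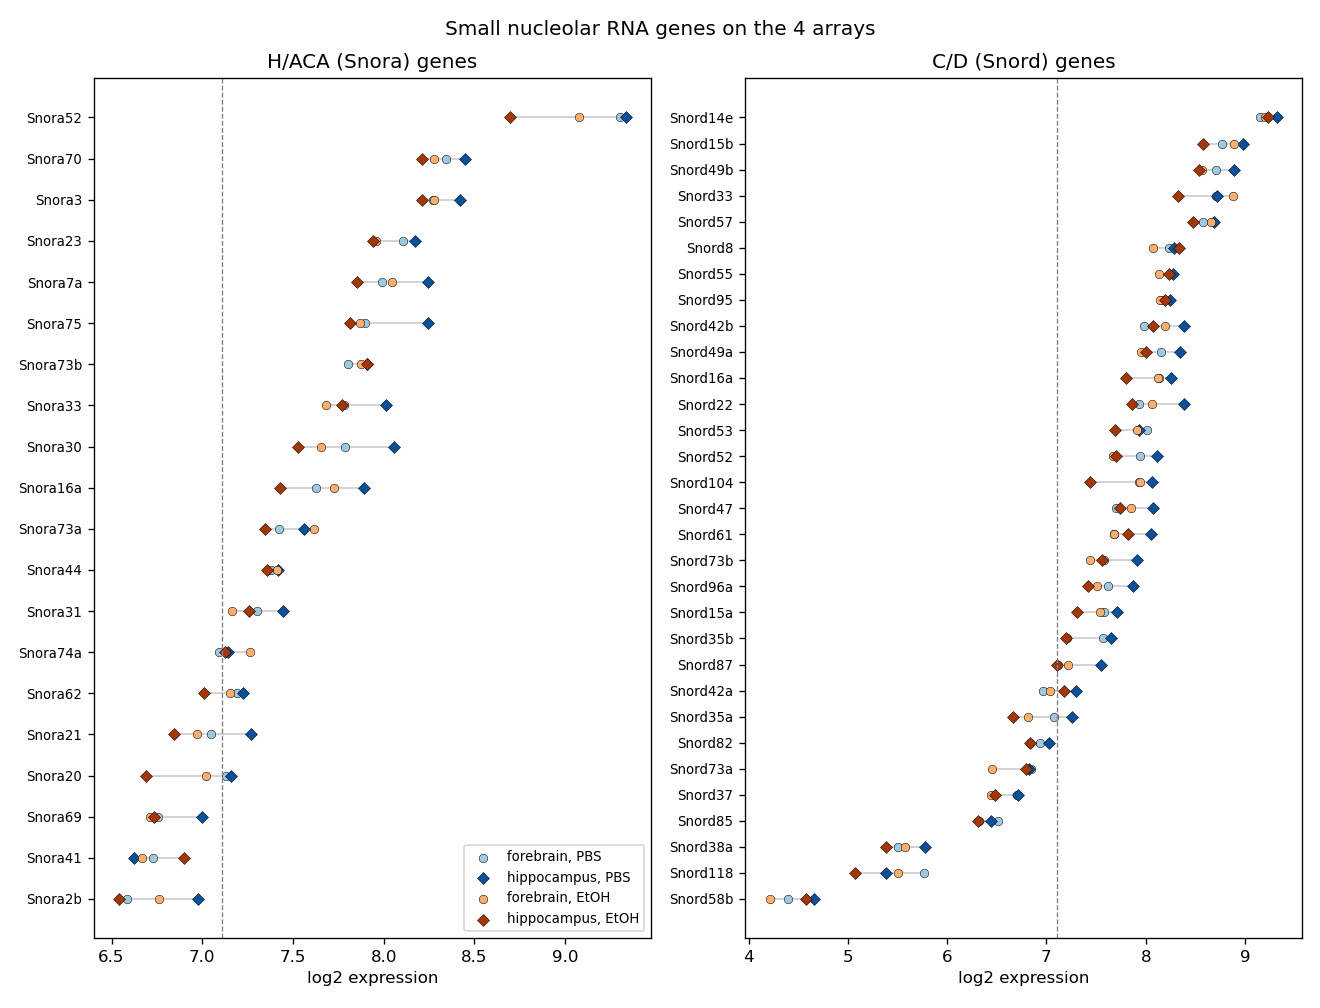
Log2 expression (x axis) of the 20 H/ACA and 31 C/D snoRNA genes (rows, ordered by mean) on the 4 arrays, 1 marker per array; the dashed line is the filter at 7.11. The dark blue diamonds (hippocampus after PBS) are the rightmost marker in 41 of 51 rows, and the brown diamonds (hippocampus after ethanol) are the leftmost in 30.

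Relative to the mean of both forebrain arrays, most snoRNA genes were higher in hippocampus after PBS. After ethanol most were lower, as were most filtered genes. For 41 of the 51 genes the hippocampus array after PBS was the highest of the 4, as it was for 38.5% of all filtered genes, and for 30 the hippocampus array after ethanol was the lowest, where the background was 50.2%. Over all 19938 genes the shares were 29.8% and 34.2%. Among the 38 snoRNA genes above the filter the counts were 32 and 23. Set against the mean of both forebrain arrays, a comparison added after the values had been seen, the hippocampus array after PBS was higher for 46 of 51 snoRNA genes, and for 35 of the 38 above the filter (median over 51 genes 0.16; 54.0% of filtered genes, median 0.01). The hippocampus array after ethanol was lower than that mean for 38 of 51, and for 28 of the 38 (median over 51 genes -0.10; background 71.4%, median -0.07), a share near the background. A high PBS hippocampus array cannot be told apart from a lower level after ethanol.

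In forebrain the ethanol differences were smaller and went both ways. The difference was below 0 for 31 of 51 genes, 12 of 20 H/ACA (median -0.04) and 19 of 31 C/D (median -0.10), beside 51.4% of all genes. Among those that passed the filter it was 20 of 38, at the background of 53.8%, with medians of -0.03 for H/ACA and -0.0031 for C/D. Of the 13 genes below the filter, where signal was low, 11 were lower, beside 51.4% of all genes with no filter. No snoRNA gene reached 1.5-fold in either direction in forebrain, where 0.0272% of filtered genes were that much lower and 0.0454% higher. The lowest filtered C/D genes were Snord35b at -0.36 (7.56 after PBS and 7.21 after ethanol), Snord52 at -0.27 (7.95 and 7.67) and Snord49a at -0.21 (8.16 and 7.95). The lowest filtered H/ACA genes were Snora52 at -0.23, Snora23 at -0.15 and Snora31 at -0.14. Highest among filtered genes were Snord42b at 0.21 (7.98 and 8.19), Snora73a at 0.19 (7.42 and 7.62), Snord33 at 0.17 and Snora74a at 0.17.

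Between the tissues, 44 of 51 snoRNA genes had a lower ethanol difference in hippocampus than in forebrain, with a median gap of -0.21, and so had 36 of the 38 above the filter, beside 67.5% of filtered genes, whose median gap was -0.06. This gap is the error term of the design and was not tested. The difference was below 0 in both tissues for 29 of 51 genes and for 19 of the 38 above the filter (42.3% of filtered genes), and 19 of the 51 were lower in hippocampus and higher in forebrain. Snord33 was one of these, at -0.39 and 0.17. It read 8.71 and 8.88 in forebrain and 8.72 and 8.32 in hippocampus, so that only the hippocampus array after ethanol lay apart. Snord22 went likewise at -0.52 and 0.13, but its PBS hippocampus reading of 8.38 was the one apart from 7.93, 8.07 and 7.86.

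**Figure D2:**
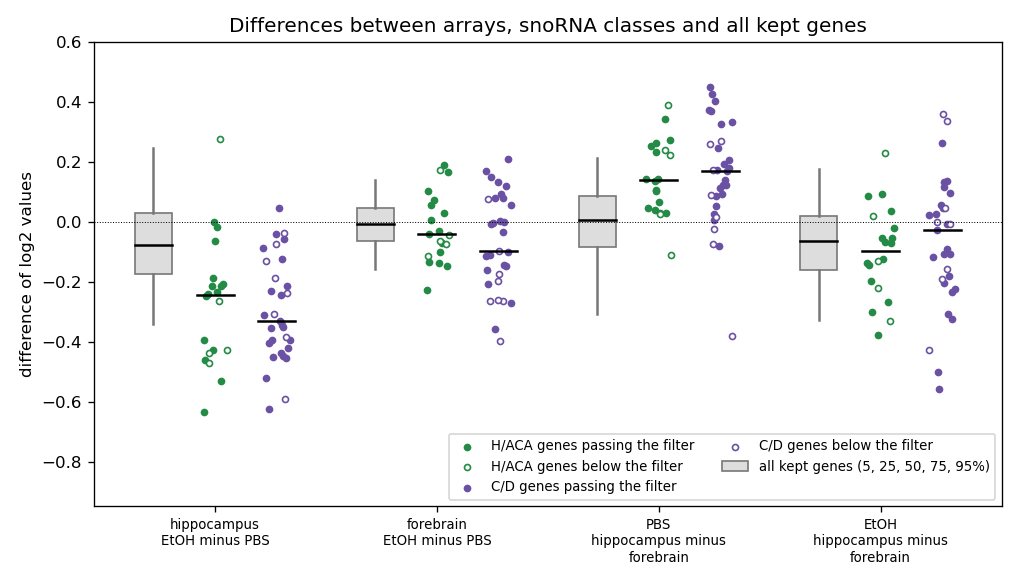
Differences of log2 values (y axis) in the 4 comparisons of 2 arrays: each point is an H/ACA (green) or C/D (purple) snoRNA gene, open points are genes below the filter, and black bars are class medians over all members. Grey boxes give the quartiles and median of the 11013 filtered genes, with lines to the 5th and 95th percentiles. Both classes lie below the grey box median in hippocampus after ethanol (-0.24 and -0.33 against -0.08) and above it in the PBS tissue comparison.

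With both tissues in 1 limma fit, treatment and tissue as additive terms and 1 residual degree of freedom, no snoRNA gene passed an adjusted p of 0.05 for ethanol, and none of the 11013 genes did (0% lower, 0% higher). The lowest adjusted p among snoRNA genes was 0.51. With no adjustment, at 0.05, 8 of 38 snoRNA genes were lower and 0 higher in the limma fit, where 6.36% of all filtered genes were lower and 3.41% higher. The largest was Snora52, with a mean difference of -0.43 (limma SE 0.104, Benjamini-Hochberg adjusted p = 0.51), lower in each tissue. Next came Snord35b at -0.41 (SE 0.0851, limma adjusted p = 0.51), also lower in each tissue, and Snord52, Snora30, Snord96a, Snord49a, Snord49b and Snord73b at -0.35, -0.33, -0.28, -0.28, -0.25 and -0.25. The 2 arrays of each treatment are different tissues. These p-values therefore rest on the gap between the tissues' ethanol differences, which limma moderates over all filtered genes, and on no replicate arrays.

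The tissues were also compared within each treatment. After PBS 46 of 51 snoRNA genes were higher in hippocampus than in forebrain, 19 of 20 H/ACA (median 0.14) and 27 of 31 C/D (median 0.17), where 52.4% of filtered genes were higher, with a median of 0.01. The largest were Snord22 at 0.45, Snord87 at 0.43 and Snord42b at 0.40, and 37 of the 38 above the filter were higher. None reached 1.5-fold, where 0.0908% of filtered genes were that much higher and 1.19% lower. After ethanol 33 of 51 were lower in hippocampus (52.6% of all genes), with a median of -0.07. Above the filter it was 26 of 38, near the 69.6% of filtered genes, with Snord33 lowest at -0.56 and Snord104 next at -0.50. None reached 1.5-fold here either (0.536% of filtered genes lower, 0.154% higher). With arrays centred on filtered genes 18 of 38 were lower after ethanol, beside 42.4%. The tissue comparisons each share an array with the ethanol comparisons and are not separate evidence. Over both treatments limma called none of the 38 for tissue (lowest adjusted p 0.255, for Snord61), while 1.02% of filtered genes were called lower and 0.109% higher. With no adjustment, at 0.05, the limma fit had 3 snoRNA genes higher and 0 lower, beside 3.27% and 11.9% of filtered genes: Snord61 at 0.26, Snord42a at 0.23 and Snord73b at 0.22.

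The snoRNAs that act in cleavage of the ribosomal RNA precursor were taken as a list of 12 symbols, of which 5 had a probe set of their own. Snora73a and Snora73b, the U17 pair, differed in hippocampus by -0.21 and 0.00, and in forebrain by 0.19 and 0.07. Snord22, or U22, differed by -0.52 and 0.13, and Snord14e, of the U14 family, by -0.09 and 0.06. Snord118, or U8, which is needed for the large-subunit RNAs and has its own promoter in place of a host gene, lay below the filter at 5.76 and 5.50 in forebrain and 5.38 and 5.08 in hippocampus after PBS and ethanol. The 4 that passed the filter were all higher after ethanol in forebrain, by 0.06 to 0.19, where 53.8% of filtered genes were lower. Snord118 differed there by -0.26. For snoRNAs of the imprinted clusters 6 symbol prefixes were looked for, such as Snord115 and Snord116. None had a probe set with a single symbol. Imprinted-cluster snoRNAs under other symbols were not looked for.

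Host genes were taken from the spans of the RefSeq gene table (assembly GRCm38.p6), which held all 51 snoRNA genes but gives no strand. Of the 51, 47 lay within the span of exactly 1 other gene, 3 within 2 genes and Snord118 within none. The 47 had 37 host genes, 16 of them ribosomal protein genes, and for 26 snoRNA genes in 22 hosts the host had a probe set with a single symbol. Host genes of this kind are known for transcripts that begin with a pyrimidine tract, which couples their translation to growth signals. The RefSeq promoter table held 29 of the 37 hosts. The letters CTTTC were found on the sense strand within 20 bases either side of an annotated start in 8 of these 29, or 27.6%, and in 6.44% of 27025 genes. On the other strand (GAAAG) they were found in 1 host and in 5.67% of all genes. A match is a description of the letters there. The starts of 4 of the 8 hosts with a match are shown because their snoRNA genes recur in the results. They are RefSeq sequence (GRCm38.p6), given 5′ to 3′ with CTTTC in capitals and 20 bases on each side of the start: Rplp2, host of Snora52; Rack1, host of Snord95 and Snord96a; the non-coding gene 2410006H16Rik, host of Snord49a and Snord49b; and Snhg12, host of Snora16a and Snora44.
Rplp2, chr7:141447631-141447670, plus strand: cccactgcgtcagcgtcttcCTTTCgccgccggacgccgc
Rack1, chr11:48800340-48800379, plus strand: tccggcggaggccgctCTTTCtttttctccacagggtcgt
2410006H16Rik, chr11:62602857-62602896, plus strand: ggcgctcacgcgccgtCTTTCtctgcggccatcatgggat
Snhg12, chr4:132308658-132308697, plus strand: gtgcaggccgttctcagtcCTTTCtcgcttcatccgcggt

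In hippocampus the host genes differed less after ethanol than their snoRNA genes. In 19 pairs in which both passed the filter, the snoRNA gene had the lower ethanol difference in all 19, and in 25 of 26 when genes below the filter were counted. The median difference was -0.24 for these 19 snoRNA genes and -0.02 for their 17 hosts. Of the hosts 9 were lower, beside 69.3% of filtered genes, and they ranged from -0.14 to 0.16. The median of snoRNA minus host was -0.34 for 9 H/ACA pairs and -0.26 for 10 C/D pairs. Pearson's r between snoRNA and host differences was 0.61 over the 19 pairs, 0.84 over the H/ACA pairs and 0.43 over the C/D pairs. Over all 26 pairs it was 0.34. In forebrain r was 0.34 over the 19 pairs and 0.065 over the 26. This is a description, since all pairs share the same arrays and some share a host. The lowest snoRNA genes, Snora52 and Snora30, had hosts at -0.11 (Rplp2) and -0.14 (Srcap). In forebrain the same 19 pairs had medians of -0.03 and 0.00, with the snoRNA gene lower in 11. Between tissues after PBS the snoRNA gene had the lower difference in 2 of the 19 pairs. These comparisons set differences, not levels, beside each other and were not tested. Most hosts lay at higher levels than their snoRNA genes, such as Rpl4 at 12.26 and Snord16a at 8.26 in hippocampus after PBS. No background of genes at the hosts' levels was drawn.

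Single pairs show the contrast. Snora52 differed by -0.63 and its host Rplp2, a protein of the large-subunit stalk, by -0.11, with host readings of 7.96 after PBS and 7.85 after ethanol. Snora75 differed by -0.43 and Ncl, which encodes nucleolin, by -0.04 (10.90 and 10.87). Snord16a differed by -0.45 and Rpl4, a large-subunit protein gene, by -0.05 (12.26 and 12.21). Snora3 and Rpl27a went apart at -0.21 and 0.13, as did Snora62 and Rpsa at -0.21 and 0.16 and Snord42b and Rpl23a at -0.31 and 0.09. Among pairs in which both passed the filter, the smallest gaps were those of Snord57 with Nop56 (-0.21 and -0.11) and Snord53 with Wdr43 (-0.24 and -0.13), whose hosts encode a C/D particle protein and a ribosome assembly factor.

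**Figure D3:**
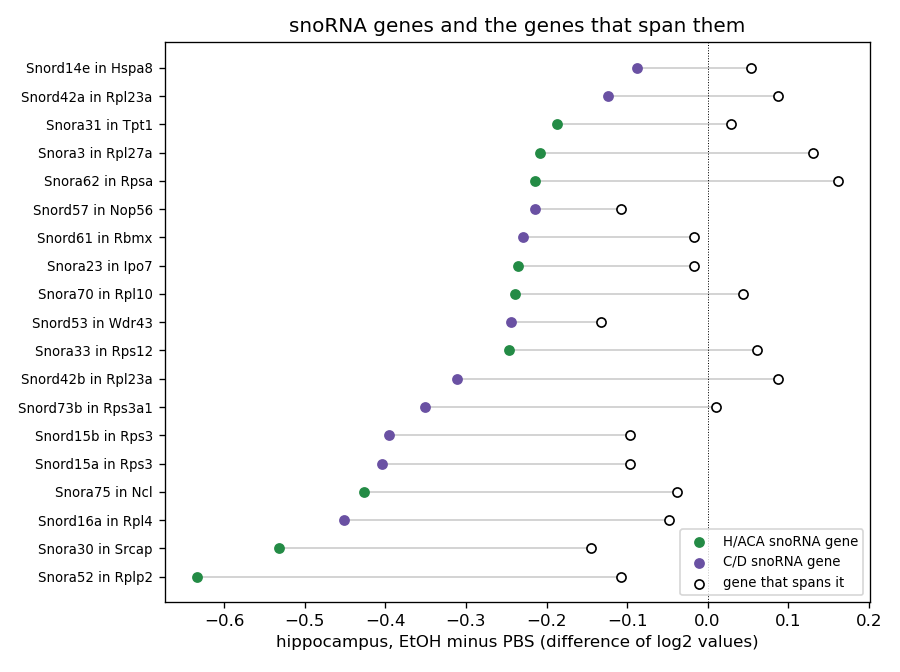
Ethanol minus PBS difference in hippocampus (x axis, log2) for 19 snoRNA genes (green H/ACA, purple C/D) and the gene that spans each (open circles), where both passed the filter; rows are pairs and a line joins each pair. Every filled point lies left of its open circle, and hosts lie between -0.14 and 0.16.

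In 10 hosts lay 2 of the snoRNA genes each, and in 9 of them both were lower after ethanol in hippocampus. Since 48 of all 51 snoRNA genes were lower there, this count is not a result about sharing a host. The paired values were close for Snord15a and Snord15b in Rps3 (-0.40 and -0.40) and for Snord49b and Snord49a in 2410006H16Rik (-0.35 and -0.34). They were far apart in other hosts. Snora16a and Snora44 of Snhg12 differed by -0.46 and -0.06, and Snord96a and Snord95 of Rack1 by -0.45 and -0.06. The gap within a host had a median of 0.23 and ran from 0.0091 to 0.40, and no replicate array gives the error of such a gap.

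Genes for the proteins that bind and make snoRNAs showed small differences. The C/D core proteins Fbl, the methyltransferase fibrillarin, Nop56, Nop58 and Snu13 differed in hippocampus by -0.13, -0.11, -0.03 and -0.19. The H/ACA core proteins Dkc1, the pseudouridine synthase dyskerin, Nhp2, Nop10 and Gar1 differed by -0.08, -0.21, -0.35 and -0.10. All 8 were lower, with none at 1.5-fold, beside 69.3% of filtered genes. Snu13 read 10.94 after PBS and 10.74 after ethanol and Nop10 read 10.07 and 9.72, and in forebrain the 8 genes differed by -0.08 to 0.07. Assembly factors were lower for 10 of 11 filtered genes (median -0.13), led by Naf1, an H/ACA assembly factor, at -0.32, and exosome and trimming genes for 17 of 18 (median -0.13), led by the exosome subunit gene Exosc7 at -0.30 and Dbr1, which opens intron lariats, at -0.29. Nucleolar and Cajal body genes were lower for 22 of 26 (median -0.10), with Wrap53, a Cajal body protein that binds H/ACA RNAs with a CAB box, at -0.40. None of the genes in these lists reached 1.5-fold in hippocampus, where 0.427% of filtered genes were that much lower and 0.49% higher. Limma called none of them for ethanol, as it called none of all 11013 filtered genes. For tissue it also called none, where 1.02% of filtered genes were called lower and 0.109% higher.

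Of 23 non-coding genes listed as snoRNA hosts, 8 passed the filter, with 4 lower and 4 higher in hippocampus after ethanol. Over all filtered genes 69.3% were lower, and over filtered long non-coding RNA genes 41.4%. Snhg16 differed by -0.42, Snhg5 by -0.34 and Snhg17 by -0.31. Snhg11 was higher by 0.95 (7.60 and 8.55, with forebrain at 8.58 and 8.78), where 0.49% of filtered genes were 1.5-fold or more higher. Meg3, Rian and Snhg15 were higher by 0.31, 0.23 and 0.23. Gas5 differed by -0.16 (11.64 and 11.49).

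Values of other short-RNA and translation genes in the hippocampal comparison stand beside these. Of 90 filtered microRNA genes 45 were lower after ethanol (median 0.01), beside 69.3% of all filtered genes. RefSeq also types as snoRNA 3 filtered genes whose symbols fall outside the rule: DQ267102 and DQ267101 were higher after ethanol, by 0.20 and 0.33, and hippocampus differed from forebrain after PBS by -0.39 and -0.45, while Gm12238 differed by -0.15 and 0.28. They were chosen after their values were seen. Of 57 filtered cytosolic ribosomal protein genes 33 were lower after ethanol (median -0.01), beside the same 69.3%. In the PBS arrays the ribosomal protein genes were higher in hippocampus for 50 of 57 (median 0.09), beside 52.4% of all filtered genes. Differences between these groups and snoRNA genes were not tested.

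In hippocampus after ethanol, some lists of markers for other cells and regions had differences of the same sign as the snoRNA genes, and others did not. Genes of dividing cells were higher in hippocampus than forebrain after PBS for 15 of 15 filtered genes (median 0.28), beside 52.4% of all filtered genes. In hippocampus after ethanol 14 of 15 were lower (median -0.19), beside 69.3% of all filtered genes. The other 2 comparisons were unlike those of the snoRNA genes. In forebrain after ethanol 14 of 15 were lower, against 20 of 38 filtered snoRNA genes. Between tissues after ethanol 13 of 15 were higher in hippocampus, where 26 of 38 filtered snoRNA genes were lower. The mean log2 level of the dividing cell genes was 8.39, 8.68, 8.32 and 8.48 in forebrain PBS, hippocampus PBS, forebrain EtOH and hippocampus EtOH. Choroid plexus markers had levels of 8.29, 8.79, 8.39 and 8.46 in the same order, with 5 of 5 filtered genes lower in hippocampus after ethanol and Ttr at 12.57 and 12.37. Forebrain regional markers had levels of 9.10, 9.22, 9.03 and 9.01. Of these markers 4 of 6 filtered genes were lower in hippocampus after ethanol, a share near the 69.3% of all filtered genes. Of these Lhx2, a cortical patterning factor, differed by -0.67, past 1.5-fold, with 10.21 after PBS and 9.55 after ethanol, Emx2 by -0.36 and Emx1 by -0.35, while the interneuron factors Dlx1 and Dlx2 were higher by 0.18 and 0.13. Among the hippocampal field markers 8 of 9 were lower, with a median of -0.09 beside -0.08 for all filtered genes. The lowest of them was Zbtb18 at -0.64. Meningeal fibroblast markers went the other way at 8.88, 7.83, 8.76 and 8.16, and pan-neuronal markers stayed within 10.99 to 11.09. Of the microglial markers 4 of 8 passed the filter, with mean levels of 7.39 to 7.66, and of the erythroid markers only Alas2, at 7.76 to 7.95. The part of these cell types and regions in the snoRNA differences was not tested, and in bulk tissue fewer cells of a type and less RNA per cell cannot be told apart.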

How the data were processed

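Trizol RNA, 6 ug a sample, was turned into biotin-labelled cRNA for Affymetrix arrays, per the labels' protocols. The deposited values are the authors' log2 expression values. That scale is unstated and was read from their range of 1.58 to 13.96. The submitters' processing notes list MAS5. How background and scale were handled was not stated.

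Of 35557 probe sets, 21789 had 1 symbol, 1621 several and 12147 none. Only those with 1 symbol were named, and each of 19938 genes was represented by its probe set of highest mean; 11013 passed the filter at 7.11. Samples were grouped by title. Pairs of arrays were compared by differences of log2 values, counted at 1.5-fold. All 4 arrays entered a fit with limma 3.58.1 (R 4.3.3; treatment and tissue, eBayes with trend, Benjamini-Hochberg over the 11013 genes at 0.05), which was tested on simulated data. Its p-values rest on the gap between the tissues' ethanol differences, moderated over genes by eBayes, and on no replicate arrays. The number of arrays limits the precision. Other steps used Python 3.11.15, pandas 2.3.3, numpy 2.4.6 and matplotlib 3.10.9.

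The members and gene lists were chosen with earlier results of these data known. The rule named, per class above the filter, the 4 highest means, the 4 highest and the 4 lowest differences after ethanol per tissue, genes 1.5-fold apart, the 4 largest mean ethanol differences of equal sign, and the pre-rRNA processing list; other genes were chosen after their values were seen. MicroRNA genes were grouped by RefSeq biotype and ribosomal protein genes by symbol, after the lists had been written. Hosts had been planned by strand, which the gene table does not give, so spans were used. Alternatives were other scalings, filters, probe set rules and folds, and limma without trend.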

Additional observations from a re-analysis of the deposited data

How the results depend on the processing

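The median of each class stayed below 0 in hippocampus after ethanol under each scaling, filter and probe set alternative run, and above 0 between tissues after PBS. Forebrain and ethanol tissue medians, near 0, changed sign under some, with kept-gene centring giving 0.02 for H/ACA and 0.00 for C/D between tissues after ethanol. With each array centred on its median over the kept genes, chosen after seeing the data, 31 of 38 were lower (43.6% of all kept genes), and after quantile normalization 34 of 38 (54.8%). The calls at 1.5-fold were few and depended on the setting. In hippocampus after ethanol 1 H/ACA and 1 C/D gene were called lower; both counts became 0 at 2-fold, after quantile normalization and with centring on the kept genes, the C/D count became 0 with the 75th percentile filter and 2 without a filter, and at 1.2-fold they were 5 and 15. At 1.2-fold the forebrain had 2 lower C/D genes, the PBS tissue comparison 3 higher H/ACA and 7 higher C/D genes, and the ethanol tissue comparison 3 lower H/ACA genes and 4 lower and 1 higher C/D genes, all of them 0 at 1.5-fold. The 75th percentile filter left Snora52 as the single H/ACA gene, so the H/ACA median became -0.63 in hippocampus, -0.23 in forebrain, 0.03 between tissues after PBS and -0.38 after ethanol. Limma called no snoRNA gene under any alternative, with lowest adjusted p-values of 0.14 to 0.618 for ethanol and 0.131 to 0.529 for tissue. A value with no replicate was counted as moved when it shifted by more than the spread over the class's genes. With 1 array per group no replicate could be left out. No paired analysis was possible because each group has 1 array, beyond the tissue term that the limma fit already holds.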

Other observations

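Besides the 51 genes, 41 probe sets carried several symbols that included a Snora or Snord gene and were not named. Of these, 24 carried the symbols of a pair of Snord116-like genes, with 7 distinct sets of values among them, so not all are separate measurements. Their means were 11.7 to 11.8, and after ethanol all 24 were higher in forebrain, with a median of 0.19, and higher in hippocampus, with a median of 0.05. Over all filtered genes 53.8% were lower in forebrain and 69.3% in hippocampus. Of the 17 others, 10 passed the filter. In hippocampus 16 of the 17 were lower after ethanol (median -0.25), beside 52.9% of all genes. In forebrain 5 were lower (median 0.04), beside 51.4%. The Snord116-like readings were thus higher by only 0.01 to 0.13 in hippocampus, where most snoRNA readings were lower. This contrast rests on 7 distinct sets of values and was not tested.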
